A study of Mus musculus with 18 samples.

Results

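Chromatin accessibility at 10 interferon regulatory and response genes was examined in mouse retina by ATAC-seq, in which a transposase cuts and tags open DNA so that sequenced fragments pile up where chromatin is accessible. The genes were 6 interferon regulatory factors (Irf1, Irf2, Irf3, Irf7, Irf8 and Irf9) and 4 interferon response genes (Isg15, Ifit1, Ifit3 and Bst2). The members of the set are the peaks that overlap each gene or the 10 kb upstream of its start. Of 911837 peaks listed over all libraries, 308 met this rule, between 13 and 23 per library. Merged across libraries, they formed 28 regions, of which 19 had a peak in 2 or more libraries, out of 73567 such regions in the genome. A region is named below by its gene and the distance of its typical summit, the highest point of a peak, from the gene start.

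The 18 libraries were made from bulk retina of wild-type (WT) mice in 6 groups of 3. At each age, 3 and 18 months (3mo and 18mo), retinas came from eyes whose intraocular pressure (IOP) was raised once to 30 mmHg, for 1 hour, from the other, contralateral eye of pressured animals, and from untreated animals. The labels place collection of the pressured and contralateral retinas on day 2, whereas the study's text names another day. A treatment text common to all labels also mentions dasatinib, and no label puts a library in a drug arm. Each library is 1 retina per the study's methods, but the labels do not tie a replicate number to an animal, so p-values measure the spread between these libraries. Libraries listed 36011 to 66160 peaks. The shortest listed peak was 79 to 89 bp in the 6 untreated libraries, 114 to 152 bp in the 6 contralateral and 119 to 157 bp in the 6 IOP libraries, so untreated and contralateral retinas differed in peak shape as well as in treatment, and the part of this difference in the results was not tested. Bulk retina mixes neurons, glia and a few immune cells. Neuronal identity was visible in promoter peaks: Nrl, Pde6b and Gnat1 of rods, Arr3 of cones and Pou4f1 of ganglion cells had a promoter region in all 18 libraries. By contrast, 0 of 9 markers of microglia and macrophages, 0 of 4 of T and B cells and 0 of 2 of astrocytes had one in any library. A peak can reflect more cells with an open site or a more open site per cell, and these cannot be told apart in bulk tissue.

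Interferons are secreted when cells sense viral or misplaced nucleic acid. IRF3 and IRF7 switch on the type I interferon genes, whose products signal through JAK kinases. IRF9 is the DNA-binding part of the factor ISGF3 that this signal forms, which binds the interferon-stimulated response element (ISRE) in promoters of response genes such as Isg15, Ifit1, Ifit3 and Bst2. Type II interferon acts on the gamma-activated site (GAS), as at Irf1, an activator that IRF2 opposes at the same elements. IRF8 is a factor of myeloid cells and microglia.

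The promoter sequences of the 4 response genes are shown because all carry a match to the ISRE while their peaks ranged from none to all 18 libraries. They are RefSeq sequences of the GRCm38.p6 build, from 250 bases before to 50 after the annotated start, written 5′ to 3′ along the gene. Capitals mark matches to the ISRE pattern, which is GAAA, any 2 bases and GAAA again, or, at Bst2, also the overlapping GAS pattern TTCNNNGAA, both searched on both strands. The stretches are chr4:156200769-156201068 on the minus strand for Isg15, chr19:34640639-34640938 on the plus strand for Ifit1, chr19:34583279-34583578 on the plus strand for Ifit3 and chr8:71537423-71537722 on the minus strand for Bst2.
Isg15: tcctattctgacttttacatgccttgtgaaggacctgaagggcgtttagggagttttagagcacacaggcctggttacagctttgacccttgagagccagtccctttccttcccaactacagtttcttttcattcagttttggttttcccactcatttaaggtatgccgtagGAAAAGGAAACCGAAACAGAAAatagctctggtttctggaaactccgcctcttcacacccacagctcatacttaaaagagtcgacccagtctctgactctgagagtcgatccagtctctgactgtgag
Ifit1: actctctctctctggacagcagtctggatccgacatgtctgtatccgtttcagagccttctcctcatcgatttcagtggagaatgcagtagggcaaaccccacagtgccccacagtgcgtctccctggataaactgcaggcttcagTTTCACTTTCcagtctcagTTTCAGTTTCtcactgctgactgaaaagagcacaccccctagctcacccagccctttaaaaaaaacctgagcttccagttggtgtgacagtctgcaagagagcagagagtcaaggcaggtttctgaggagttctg
Ifit3: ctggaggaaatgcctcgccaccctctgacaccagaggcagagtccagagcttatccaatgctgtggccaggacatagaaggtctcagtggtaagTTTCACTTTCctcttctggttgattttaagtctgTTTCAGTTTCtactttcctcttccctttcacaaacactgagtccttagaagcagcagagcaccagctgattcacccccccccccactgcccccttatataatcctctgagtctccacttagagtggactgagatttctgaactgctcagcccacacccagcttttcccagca
Bst2: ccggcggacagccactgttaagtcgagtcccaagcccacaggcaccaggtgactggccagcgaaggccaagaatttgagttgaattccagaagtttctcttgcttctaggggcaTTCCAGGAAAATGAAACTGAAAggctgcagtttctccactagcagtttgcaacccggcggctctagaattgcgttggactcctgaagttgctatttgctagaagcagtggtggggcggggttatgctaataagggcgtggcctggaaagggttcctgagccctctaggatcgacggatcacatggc
Distances here and below count from the GENCODE gene start. The RefSeq start that the printed stretches follow lies at the same base for Isg15, Irf1 and Irf8, 18 bp after it for Ifit1, 13 bp after it for Irf2, 2 bp before it for Ifit3 and 16 bp before it for Bst2. Isg15 holds 3 overlapping ISRE matches that begin 78, 72 and 66 bp before its start. Ifit1 holds 2, at 86 and 67 bp, Ifit3 holds 2, at 158 and 124 bp, and Bst2 holds 2 overlapping ones at 146 and 140 bp with a GAS match at 152 bp before its start. An ISRE match occurs in 3.44% and a GAS match in 8.3% of 32851 RefSeq promoters of this length. A match is a string of letters and does not show that a factor was bound.

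Of the regulatory factors, 3 promoters are shown for their GAS matches, in capitals here together with the ISRE match of Irf2. They lie at chr11:53769764-53770063 (Irf1), chr8:120736108-120736407 (Irf8) and chr8:46739495-46739794 (Irf2), all on the plus strand.
Irf1: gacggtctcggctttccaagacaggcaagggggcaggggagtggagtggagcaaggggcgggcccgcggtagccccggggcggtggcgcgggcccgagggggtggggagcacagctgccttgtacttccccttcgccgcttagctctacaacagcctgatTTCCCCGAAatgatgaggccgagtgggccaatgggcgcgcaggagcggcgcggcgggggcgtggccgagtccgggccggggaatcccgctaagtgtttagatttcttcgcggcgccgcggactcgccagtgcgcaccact
Irf8: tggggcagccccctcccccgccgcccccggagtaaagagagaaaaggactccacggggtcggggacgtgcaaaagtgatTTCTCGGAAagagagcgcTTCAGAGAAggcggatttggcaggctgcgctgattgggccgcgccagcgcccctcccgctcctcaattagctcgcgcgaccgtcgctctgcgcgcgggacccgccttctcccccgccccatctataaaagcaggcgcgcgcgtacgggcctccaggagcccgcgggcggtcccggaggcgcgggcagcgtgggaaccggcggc
Irf2: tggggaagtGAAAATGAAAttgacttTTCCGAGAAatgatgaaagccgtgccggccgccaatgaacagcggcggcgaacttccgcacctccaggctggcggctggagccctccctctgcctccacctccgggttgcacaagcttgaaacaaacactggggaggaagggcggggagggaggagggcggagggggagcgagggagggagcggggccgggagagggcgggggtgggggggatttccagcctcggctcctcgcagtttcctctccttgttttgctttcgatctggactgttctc
The GAS match of Irf1 begins 90 bp before its start. Irf8 has 2, at 171 and 153 bp. Irf2 has an ISRE match at 228 bp and a GAS match at 211 bp before its start. Irf3, Irf7 and Irf9 had 0 matches in the RefSeq promoter. All 10 genes were found in the RefSeq promoter table. Within 100 bp of the typical summit, 4 of the 19 window regions (21.1%) held an ISRE and 3 (15.8%) a GAS match, against 1.35% and 4.4% of 73449 regions on assembled chromosomes. These 2 shares are a description only, since the genes were chosen for this pathway.

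All 6 regulatory factors had a promoter region, that is a region within 1 kb of a start, in all 18 libraries, whereas of the response genes only Bst2 did. Ifit3 had one in 15 libraries, Ifit1 in 4 and Isg15 in 0. Across 21951 protein-coding genes, 52.7% had a promoter region in all 18 libraries and 35.8% had none in 2 or more libraries. Of the 19 window regions, 11 (57.9%) were listed in all libraries, against 33.6% of all regions. The matrix of peaks by region and library shows this split between steady and variable sites.

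**Figure D1:**
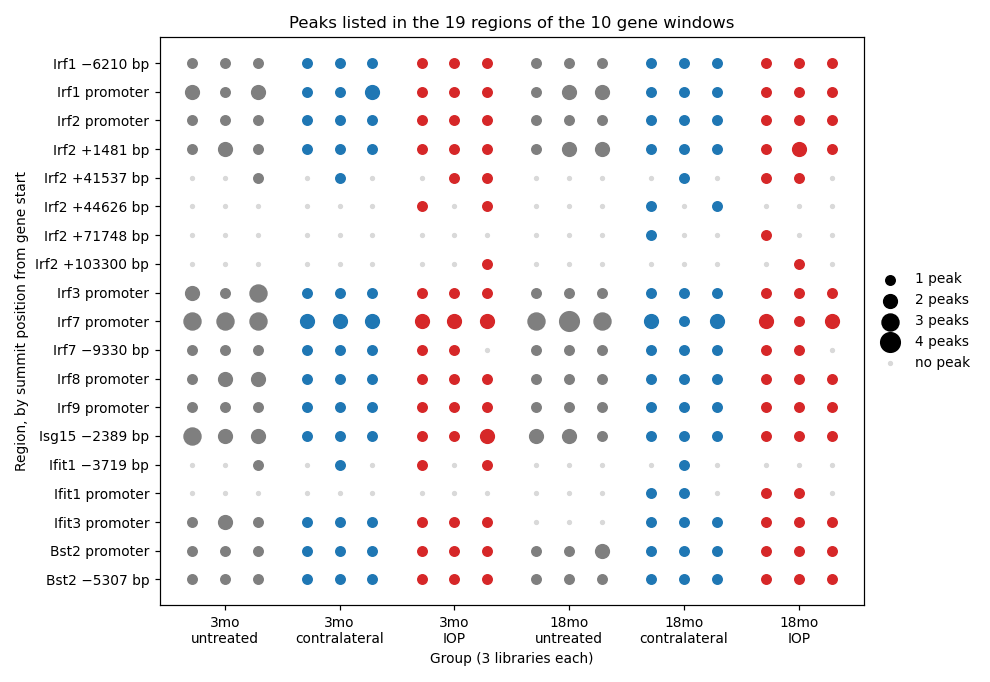
Peaks listed in each of the 19 regions (rows, named by gene and summit distance from the gene start in bp) in each of the 18 libraries (columns, grouped by age and eye). Point area grows with the number of peaks and small grey points mark no peak. Of the rows, 11 are filled in all 18 libraries, while the Ifit3 promoter is empty in the 3 libraries of 18mo untreated retinas and the Ifit1 promoter is filled in 4 libraries of 18mo retinas.

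Irf3 and Irf7 encode the factors that start type I interferon production. The Irf3 promoter region (chr7:44997133-44998222, plus strand, shared with the divergent gene Bcl2l12) had a fold enrichment over local background, as the peak caller listed it, between 8.59 and 14.3. It ranked between the 82.2 and 92.3 percentile of −log10 q among the peaks of its library. By rank of fold among the 24751 regions listed in all libraries, a measure within each library, untreated and contralateral retinas had means at the 70.6 ± 3.99 and 70.4 ± 10.2 percentile (SD, n = 6 each).

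The Irf7 promoter region (chr7:141265042-141266738, minus strand) was the most divided site of the set. Its highest summit lay between 14 bp before and 92 bp after the gene start. A further summit 1123 to 1307 bp into the gene recurred in 16 of 18 libraries as a separate peak, and the 6 untreated libraries also listed one at 444 to 483 bp, in a 5′ UTR exon. Every untreated library listed 3 or 4 peaks there, while contralateral and IOP libraries listed 1 or 2. The ISRE match of this region begins 372 bp after the gene start, between the first and the middle summits. By the same rank of fold, the Irf7 promoter stood at the 44.9 to 69.9 percentile in untreated libraries and at 27.3 to 47.0 in contralateral ones.

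The second region in the Irf7 window, 9330 bp upstream (chr7:141275596-141276065), lies at a promoter of Cdhr5, a cadherin-related gene, inside one of its introns. It was the window region with the largest age difference in height. In contralateral retinas its fold was 3.57, 5.33 and 3.55 at 3mo and 8.21, 5.39 and 7.01 at 18mo. In untreated retinas it was 8.82, 6.49 and 9.24 at 3mo and 10.1, 10.2 and 9.47 at 18mo. Within each kind of control every 18mo value lay above every 3mo value. The margin was narrow in contralateral (5.39 against 5.33) and in untreated retinas (9.47 against 9.24). By percentile of −log10 q the contralateral groups overlapped, with 3mo replicate 2 at 61.7 and 18mo replicate 2 at 61.2. The untreated groups did not, with 67.9 as the highest value at 3mo and 69.4 as the lowest at 18mo. The share of all regions that separate in this way was not counted. This Cdhr5 region was listed in 2 of 3 IOP libraries at each age and in all 12 controls.

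Irf9, the DNA-binding partner in ISGF3, had its summit 484 to 559 bp after the GENCODE gene start in all 18 libraries. This lies in a 5′ UTR exon (region chr14:55603666-55604582, plus strand). A RefSeq start of Irf9 lies 414 bp after the GENCODE start, a short way before these summits. Outside the RefSeq promoter stretch, this region holds a GAS match that begins 553 bp after the GENCODE start. The Irf9 fold was between 10.9 and 20.4. By contrast, the highest summit of Irf1 moved between 107 bp before and 423 bp after its start (chr11:53769576-53770759, plus strand). The Irf1 fold was 4.43 to 9.74. A second Irf1 region 6210 bp upstream (chr11:53762829-53764231), at the promoter of the microRNA gene Mir7671, was listed in all libraries with a fold of 5.2 to 10.5.

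Irf2, the longest window at 117727 bp, held 6 of the 19 regions. Its promoter region (chr8:46739158-46739945, plus strand, shared with the antisense gene Gm16675) and an intronic region 1481 bp after the start (chr8:46740012-46741733) were listed in all libraries. The other 4 lay in introns 41537 to 103300 bp after the start and were listed in 7, 4, 2 and 2 libraries. Of the 9 window regions listed in a single library, 8 were in Irf2.

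Irf8 had a promoter peak in every library (chr8:120735697-120736830, plus strand), with a fold of 8.66 to 17.3. In the same libraries the promoters of Cx3cr1, Csf1r, P2ry12, Tmem119 and Spi1 had none in any. Irf8 and the microglial marker list thus went apart in these peak lists.

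The plot of summits shows where the peaks of the 9 genes with a promoter region sat.

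**Figure D2:**
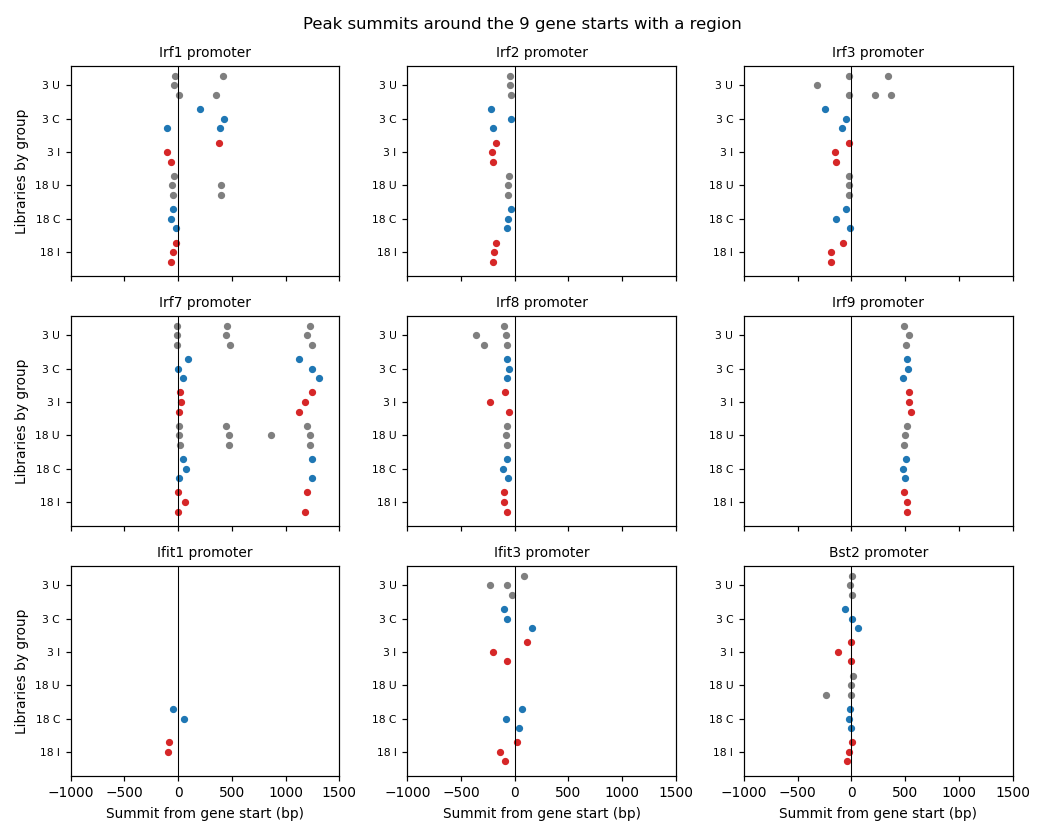
Summit positions (bp from the gene start, vertical line at 0) of every peak in the 9 promoter regions, with libraries stacked by group (age in months, U untreated, C contralateral, I IOP). Irf9 summits sit at 484 to 559 bp in all libraries, Irf7 shows several columns of summits, and Irf2 summits of the 6 IOP libraries sit between 210 and 174 bp before the start.

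The Irf2 summit lay farther upstream in IOP than in untreated retinas. In the 6 IOP libraries it lay 174, 210 and 203 bp before the start at 3mo and 177, 195 and 198 bp before it at 18mo. In 18mo contralateral retinas it lay 32, 59 and 71 bp and in 3mo contralateral retinas 223, 36 and 203 bp before the start. In the untreated libraries it lay 35 to 63 bp before the start. The groups did not overlap at 18mo but did at 3mo. The ISRE and GAS matches printed above lie 228 and 211 bp before the start. This pattern was singled out after its values were seen, and 3 against 3 libraries cannot reach an exact permutation p below 0.1. How many of all promoter regions have summits that separate in this way was not counted. A link between the matches and the summit positions was not tested.

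Bst2 encodes tetherin, which holds budding virus at the cell surface. Its promoter region (chr8:71537062-71537772, minus strand) was listed in all libraries with a fold of 7.5 to 16.2. A region 5307 bp upstream (chr8:71542504-71543527), at the promoter of Mvb12a, had the highest mean percentile of −log10 q of the window regions, 96.8 ± 1.47 (SD, n = 18).

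Isg15 encodes a ubiquitin-like modifier. It had no peak within 1 kb of its start in any library, although its promoter holds 3 ISRE matches. Its window held 1 region, 2389 bp upstream (chr4:156202756-156204227), which is the promoter region of AW011738 and was listed in all 18 libraries with a fold of 8.59 to 18.5. The absence of a listed peak says that coverage did not pass the caller's threshold, a q-value of 0.0499 at most in these lists, not that the site was closed.

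Ifit1 and Ifit3 encode tetratricopeptide proteins that bind viral RNA. The Ifit1 promoter region (chr19:34640674-34641008, plus strand, shared with Ifit1bl2) was listed only at 18mo, with folds of 6.18 and 4.21 in contralateral replicates 1 and 2 and 4.19 and 7.69 in IOP replicates 1 and 2. It was unlisted in the other 14 libraries, the 3 untreated 18mo retinas included. The 2 ISRE matches lie within 100 bp of its typical summit. Of protein-coding genes, 0.392% had a promoter region listed in 2 or more 18mo libraries and in 0 at 3mo, and 0.483% the reverse. A second Ifit1 region 3719 bp upstream, in an intron of Ifit1bl2, was listed in 4 libraries at 3mo and 1 at 18mo.

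The Ifit3 promoter region (chr19:34583229-34583831, plus strand) was listed in 15 libraries. In untreated retinas its highest fold was 4.62, 6.04 and 7.97 at 3mo, and no peak was listed in any of the 3 libraries at 18mo. Of all regions, 0.776% were listed in all 3 untreated libraries at 3mo and in none at 18mo, and 0.892% the reverse. In contralateral retinas the fold was 5.16, 7.09 and 5.08 at 3mo and 5.36, 4.97 and 5.47 at 18mo. In IOP retinas it was 4.64, 7.11 and 5.97 at 3mo and 6.28, 12.1 and 6.69 at 18mo. At 18mo all IOP values lay above all contralateral values, and at 3mo the groups overlapped. Such a separation of 3 against 3 libraries cannot reach an exact permutation p below 0.1. Its share over all regions was not counted. Ifit3 has a close copy, Ifit3b, whose own promoter region was listed in all 18 libraries, and reads from near-identical sequence could have been assigned to either copy.

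**Figure D3:**
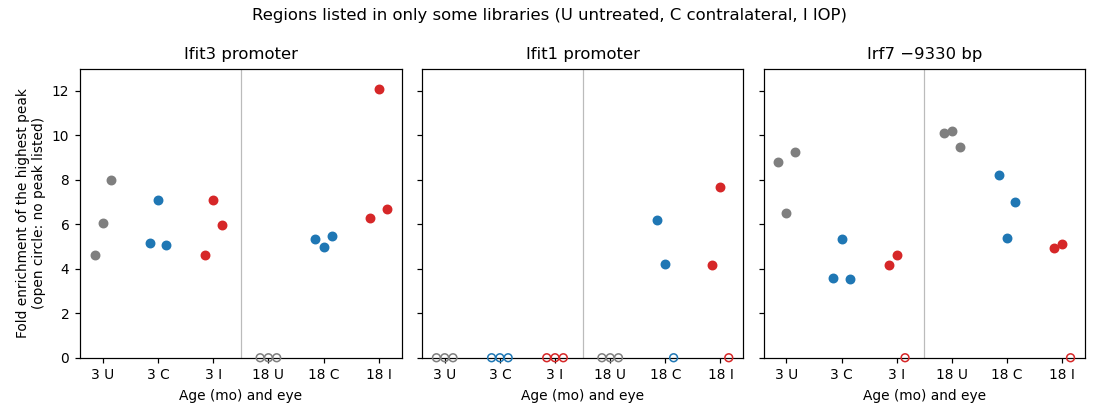
Fold enrichment over local background (linear axis) of the highest peak in 3 regions listed in 15, 4 and 16 of 18 libraries, by age in months and eye (U untreated, C contralateral, I IOP). Each point is 1 library and open circles at 0 mark libraries with no listed peak. The Ifit3 peak reaches 12.1 in 1 of the 18mo IOP retinas and is unlisted in 18mo untreated retinas.

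The genes with promoter calls most like those of Ifit1 were Tgfbr2, Scml4 and Mfap4, chosen among 7 tied genes of 14085 with a Jaccard index of 0.75 over 18 libraries. For Ifit3 they were Tmem51 and Sez6l, with an index of 1.0, and S100a4, with 0.938, of 14086 genes.

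The first question was whether control retinas differed with age, 6 libraries of 18mo against 6 of 3mo. The number of window peaks did not differ beyond its spread, with 17.3 ± 2.07 peaks at 18mo and 17.8 ± 3.25 at 3mo (SD, n = 6; two-sided exact permutation p = 0.844, adjusted over the 4 comparisons of peak number 0.844). The number of the 19 regions listed was 13.7 ± 1.97 and 13.7 ± 1.03 (n = 6; exact permutation p = 1.0). Untreated libraries divided wide regions into more peaks. In the 11 regions listed everywhere they held 14 to 18 peaks, contralateral libraries 11 to 13 and IOP libraries 12 to 13, and untreated exceeded contralateral libraries by 4.33 peaks (n = 6 each; exact permutation p = 0.00216). In contralateral retinas alone the age difference in peaks was 2.0, and in untreated retinas alone −3.0.

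**Figure D4:**
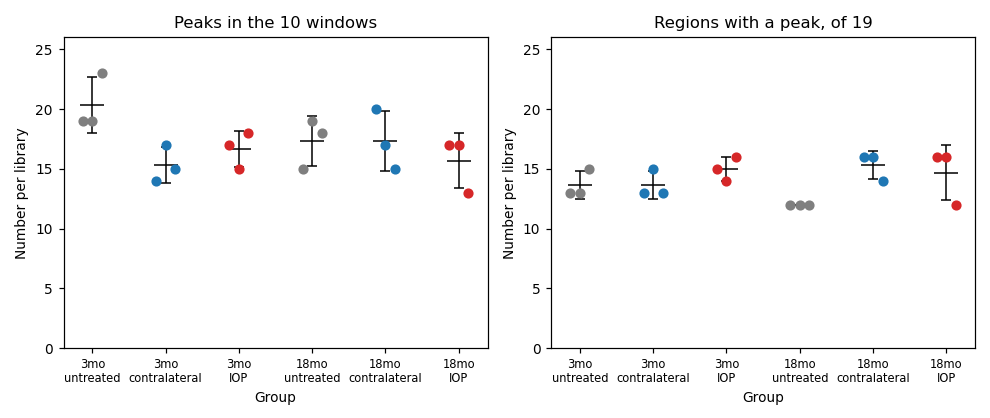
Number of peaks in the 10 windows (left) and number of the 19 regions with a peak (right) per library, with mean and SD of 3 libraries as bars. The 3mo untreated libraries hold 19 to 23 peaks, the most of any group, but list 13 to 15 regions, as the 3mo contralateral libraries do.

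No window region could be called for a change in listing with age. By Fisher's exact test 9868 regions could reach an unadjusted p of 0.05, and 3.19% did so listed more often and 0.385% less often at 18mo, with 0 after Benjamini-Hochberg adjustment. None of the 19 window regions was among those testable. Ifit3 came nearest, listed in all 6 controls at 3mo and 3 of 6 at 18mo (two-sided Fisher's exact test p = 0.182). When each list was cut to its 36011 strongest peaks, the Ifit3 promoter was listed in 5 of 6 controls at 3mo and 0 of 6 at 18mo (two-sided Fisher's exact test p = 0.0152, unadjusted). Among 5985 regions testable in those equal lists, 1.34% were listed less often at 18mo at that level.

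Peak height was compared as the rank of the fold within its library, turned into a normal score and fitted with limma. Over 27019 regions listed in all 12 controls, with kind of control as a covariate, 76 were higher and 33 lower at 18mo after adjustment, 0.403% of regions. None of the 12 window regions in this fit passed. At an unadjusted p below 0.05, 12.1% of all regions and 1 of the 12 window regions differed. That one was the Cdhr5 promoter region 9330 bp upstream of Irf7, with a difference of 0.63 ± 0.15 normal scores (SE; limma adjusted p = 0.0743). The other window regions lay between −0.29 and 0.22.

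The second question was whether raised pressure changed these sites, 3 IOP against 3 contralateral retinas at each age. Window peaks numbered 16.7 ± 1.53 with IOP and 15.3 ± 1.53 without at 3mo (SD, n = 3; exact permutation p = 0.5). At 18mo they numbered 15.7 ± 2.31 and 17.3 ± 2.52 (n = 3; exact permutation p = 0.6). The smallest p that this design allows is 0.1. The effects at both ages differed by −3.0 peaks (two-sided exact permutation within age, p = 0.26).

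Of 5572 regions testable for listing by an exact test stratified by age, 1.62% were listed more often and 3.43% less often with IOP at an unadjusted p below 0.05, and 0 after adjustment. The only testable window region, in an Irf2 intron 41537 bp after the start, was listed in 4 of 6 IOP and 2 of 6 contralateral libraries (exact p = 0.59). Regions listed in all 3 IOP and no contralateral library made up 0.217% of the genome's regions at 3mo and 0.239% at 18mo, and the reverse 0.241% and 2.23%. No window region was exclusive in either sense at either age. In the equal lists the Ifit3 promoter was, listed in 3 of 3 IOP and 0 of 3 contralateral retinas at 18mo, against 0.927% of regions in those lists. At 3mo it was listed there in 2 IOP and 3 contralateral libraries.

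In peak height over 26566 regions listed in all 12 IOP and contralateral libraries, 0% passed adjustment at 3mo, 0.0376% at 18mo and 0% for the difference between ages. The 12 window regions in this fit contributed 0 in all 3 contrasts. At an unadjusted p below 0.05, 3.45% of all regions differed at 3mo, 10.6% at 18mo and 4.03% between ages, and 3 window regions did in each contrast.

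At 18mo these 3 were Ifit3 and both steady Irf2 regions, all higher with IOP. The Ifit3 promoter differed by 1.37 ± 0.35 normal scores (SE; limma adjusted p = 0.239). The Irf2 promoter differed by 0.47 ± 0.18 (limma adjusted p = 0.409). Its percentile of fold was 4.32, 4.91 and 4.17 in contralateral and 7.27, 15.0 and 10.6 in IOP retinas, without overlap. The Irf2 region 1481 bp after the start differed by 0.35 ± 0.16 (limma adjusted p = 0.458). Its percentiles were 4.44, 5.32 and 5.59 against 11.3, 8.52 and 9.68, again without overlap and among the lowest of the steady regions. How many of all regions lack overlap between 3 IOP and 3 contralateral libraries was not counted.

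At 3mo the 3 regions were both Irf1 regions and Irf8. The Irf1 promoter was at the 41.0, 29.3 and 9.62 percentile in contralateral and the 36.8, 47.5 and 53.7 percentile in IOP retinas, a difference of 0.58 ± 0.25 (limma adjusted p = 1.0) with overlap. Without 3mo contralateral replicate 3, the library at 9.62, this difference was 0.278. The region 6210 bp upstream of Irf1 differed the other way, by −0.51 ± 0.21 (limma adjusted p = 1.0), with 42.9, 56.8 and 28.5 in contralateral and 26.3, 25.3 and 21 in IOP retinas. Without 3mo contralateral replicate 2 it was −0.337. The Irf8 promoter differed by −0.41 ± 0.16 (limma adjusted p = 1.0), from 83.6, 84.7 and 75.1 to 74.4, 65.8 and 64.0. This Irf8 difference turned to 0.07 when −log10 q was ranked in place of the fold. By percentile of fold, the 3mo groups did not overlap at Irf8 or at the region 6210 bp upstream of Irf1. The share of all regions without overlap at 3mo was not counted.

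At 18mo the Irf1 promoter stood at the 34.6, 29.4 and 37.6 percentile in contralateral and 39.7, 64.7 and 61.7 in IOP retinas. The groups did not overlap there, and the difference of 0.54 ± 0.25 did not pass the test (limma adjusted p = 0.472). At the Irf7 promoter the 18mo groups were also apart, at 27.3 to 34.0 in contralateral and 36.5 to 40.7 in IOP retinas. That difference of 0.25 ± 0.17 did not pass either (limma adjusted p = 0.561). The share of all regions whose 18mo groups lie apart in this way was not counted. In untreated retinas the Irf1 promoter lay between the 4.74 and 18.7 percentile.

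Tested directly, the IOP effect at 18mo minus that at 3mo was 1.23 ± 0.49 for Ifit3, 0.50 ± 0.22 for the Irf2 region 1481 bp after the start and 0.50 ± 0.23 for Irf8, each with a limma adjusted p of 0.93. The Ifit3 value was 0.796 without 18mo IOP replicate 2. An age difference in the response to pressure was therefore not detectable at these sites with 3 libraries a group.

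**Figure D5:**
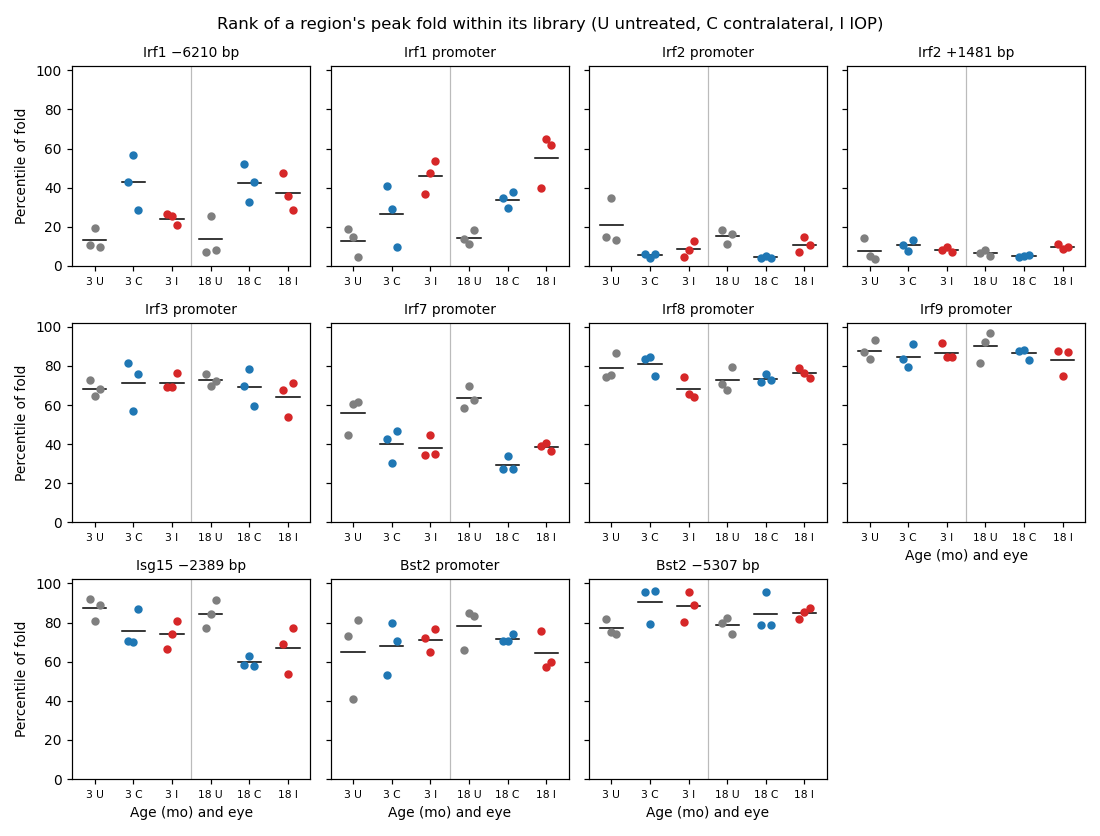
Percentile of the fold of a region's highest peak among the 24751 regions listed in all 18 libraries, for the 11 window regions listed in all, by age in months and eye (U untreated, C contralateral, I IOP). Points are libraries and lines are means of 3 libraries. Irf9 and the region 5307 bp upstream of Bst2 stay high in all groups, both Irf2 regions stay low, and the Irf1 promoter has its lowest group means in untreated retinas, 12.7 at 3mo and 14.5 at 18mo.

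The rest of the pathway was taken from a list of 75 further genes, 74 of which were matched in the annotation. Of these, 30 had a promoter region in all 18 libraries, 18 in some and 26 in none, beside 52.7% in all and 35.8% with none over all protein-coding genes, and differences between the groups of genes below were not tested. Of 11 receptors and kinases, 9 had a promoter region in all 18 libraries and 2 in some. These 9 included the receptor chains Ifnar1, Ifnar2, Ifngr1 and Ifngr2 and the kinases Jak1, Jak2 and Tyk2. Of 8 other factors, 4 had one in all, 3 in some and 1 in none. Of 12 sensors and adaptors of nucleic acid sensing, 4 had one in all, among them Mavs and Tbk1, 5 in some and 3 in none. Of 39 response genes, 14 had one in all, 8 in some and 17 in none, the latter including Mx1, Mx2, Oas1a, Ifitm3 and Cxcl10. Response genes with one in all 18 included Ifit2, Ifit3b, Usp18 and the antigen presentation genes Psmb8, Psmb9, Tap1 and B2m. None of the 5 ligand genes, among them Ifnb1 and Ifng, had a promoter region. Age could be tested for the listing of 4 of these genes and IOP for 1, and 0 passed at an unadjusted p of 0.05.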

How the data were processed

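ATAC-seq was performed in 18 bulk retina libraries, and 1 list of narrow peaks per library was deposited. Per the submitters' processing notes and the study's methods, reads were aligned with STAR 2.7.8a to mm10, and MACS2 called peaks per library, without pooling replicates. STAR is a spliced aligner more usual for RNA. HOMER, edgeR and bedtools 2.29.2 are also named, without values in the lists. The preparation text on the labels describes crosslinked chromatin and immunoprecipitation, while the methods of the study give a transposase reaction on nuclei of fresh tissue. The authors' lists hold an integer score, a fold enrichment over local background (a ratio), −log10 p and −log10 q, and no read counts, so depth is unknown and no count test could be made.

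Here peaks overlapping by at least 1 bp were merged across libraries and regions listed in 2 or more libraries kept. Windows ran from 10 kb upstream of the GENCODE M21 gene start to the gene end. Promoter regions lay over or within 1 kb of an annotated start. Peak numbers were compared by exact permutation tests, listing by exact tests over all testable regions, and rank-based normal scores of fold with limma 3.58.1 in R 4.3.3, each with Benjamini-Hochberg adjustment. Of these, the exact tests of listing and some of the limma contrasts were tried on simulated data, with outcomes not given here. Python 3.11.15, SciPy 1.17.1 and pysam 0.24.0 were used.

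All 10 genes are described, with their promoter regions, any window region below an unadjusted p of 0.05 or exclusive to a group, and the region of highest mean rank; the Irf2 summit pattern was added after its values were seen. The members, the wider gene list and the marker list were chosen with earlier results of these data known. Alternatives were a stricter q, equal numbers of peaks, a 2 kb window, 50% coverage of a region, other controls, other height scales and covariates, a replicate block and leaving out each library. After the data were seen, regions listed were added in place of peaks.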

Additional observations from a re-analysis of the deposited data

Results flagged for a closer look

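In each group of 6 controls of one age, the peak and region numbers and the height percentiles of the 11 steady window regions were checked for 1 library far from the other 5, in 26 groups of values, of which chance flags about 1 in 20. For the region 5307 bp upstream of Bst2, 18mo contralateral replicate 2 stood at the 95.5 percentile of fold, and the other 18mo controls at 74.3 to 82.1. Its shortest peak was 149 bp. At 3mo, contralateral replicates 1 and 3, with a shortest peak of 152 bp, stood at 95.4 and 96.1. Replicate 2 of that group, with 116 bp, stood at 79.4. A link with peak shape was not tested. For the Irf2 promoter, 3mo untreated replicate 5 stood at the 34.5 percentile, and the other 3mo controls at 4.29 to 14.9.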

How the results depend on the processing

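Peak number turned direction in 4 alternatives, and the cause was not tested. The age difference of −0.5 peaks became 2.0 with contralateral controls alone, and lay between −1.27 and 0.533 when each library was left out, positive without 3mo untreated replicate 6. With equal numbers of peaks the IOP difference at 18mo was 1.67 in place of −1.67, and its excess over 3mo was 1.67 in place of −3.0. No alternative brought a peak number p below 0.14. With equal numbers of peaks, 1 window region in place of 0 differed by age at an unadjusted p below 0.05 and 1 was exclusive to IOP at 18mo, in both cases the Ifit3 promoter. Leaving out a library gave 0 or 1 exclusive regions at either age. The 1 was the Irf2 intronic region 44626 bp after the start, exclusive to IOP without 3mo IOP replicate 2 and to contralateral retinas without 18mo contralateral replicate 2. The Irf8 height difference at 3mo was 0.0732 when −log10 q was ranked. No window region passed adjustment in height in any contrast or alternative. With the shortest peak as a covariate, the Ifit3 height difference at 18mo was 1.16 in place of 1.37. The adjusted p of the region upstream of Irf7 ranged from 0.05 to 0.578 and that of Ifit3 at 18mo from 0.102 to 0.532, with differences of 0.94 without 18mo IOP replicate 2 and 1.76 without 18mo IOP replicate 1. The labels do not tie replicate numbers to animals, so the numbers were not taken as pairs in the main tests. Same-numbered IOP and contralateral libraries did not deviate together at all pairs (correlations −0.31, −0.245 and 0.177 at 3mo, 0.347, 0.213 and −0.154 at 18mo). The highest correlation, 0.434, joined differently numbered libraries, 3mo IOP replicate 1 and 3mo contralateral replicate 2. With the replicate block the IOP differences in peaks stayed 1.33 (3mo) and −1.67 (18mo), with an exact permutation p of 0.5 at both ages, Ifit3 height stayed 1.37 with an adjusted p of 0.237, and no window region was called. Age could not be tested for listing in contralateral or untreated controls alone, where 3 against 3 cannot pass 0.05. Without read counts, sites near the calling threshold, such as Ifit1 and Ifit3, limit what the lists can show.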
